A study of Arabidopsis thaliana with 12 samples.

Results

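The genes described here encode the cytosolic large-subunit (60S) ribosomal proteins L21 to L39 of Arabidopsis, including L23a, L27a, L35a and L37a. A list of 56 loci in 21 protein families was matched by locus or Entrez ID to probe sets that name only 1 gene in the platform annotation. This gave 33 measured genes in 14 families, out of 13333 genes measured in that way on the array, and each of the 33 had 1 such probe set. The other 23 loci had none, and 12 of those share probe sets that name 2 genes of 1 family. All loci of L21, L23, L23a, L24, L27a, L32 and L38 were among the unmeasured ones.

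The material was protoplasts, cells freed of their walls, made from roots of the Columbia ecotype grown on MS/2 medium and transformed with ABI3-GR. ABI3 is a transcription factor of seed maturation, and in this form it enters the nucleus when dexamethasone (DEX) is given. The 4 groups received neither agent, 10 µM DEX, 35 µM cycloheximide (CHX, which blocks protein synthesis), or both, and each had 3 arrays of labelled total RNA. Every group carried ABI3-GR, and the sources used here do not name the promoter that drives it. Nothing in the labels says that a group's arrays came from separate protoplast batches, and the p-values therefore reflect the spread among these arrays, which may be technical.

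A cytosolic ribosome joins a small subunit, which reads the messenger RNA, to a large subunit, which forms the peptide bonds and lets the new chain leave through a tunnel. Plants encode nearly every ribosomal protein in several paralogous genes, so that 1 position in the ribosome can be filled by the product of more than 1 locus. In growing root tissue these genes are among the strongly expressed ones, and they are known for being regulated together.

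Values are log2 intensities after a floor of 16 (4 on the log2 scale), and a level of 1 probe set says nothing about its level relative to another. Every array had been scaled to a trimmed mean of 500.0, and array medians ran from 115.6 to 220.9. Hybridisation controls were at a geometric mean of 214.9 on replicate 1 of CHX alone and between 7102 and 12904 on the other 11 arrays. Of 10 root markers, 2 were measured: the root beta-glucosidase gene PYK10 was at 13.30 ± 0.21 (SD, n = 3) without treatment, and the root hair gene EXPA7 at 5.81 ± 0.997 (SD, n = 3). The only measured photosynthesis marker of 10, RCA, was at 8.34 ± 0.40 (SD, n = 3).

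CHX lowered most of the measured genes, with or without DEX. Without DEX, 23 of the 33 fell past the threshold and 1 rose, where 16.1% of the 22746 probe sets fell, 10.9% rose and 26.9% thus passed in either direction (limma, adjusted p under 0.05 over all probe sets). The falls ran from 2.07-fold to 18.8-fold, with a median of 4.55-fold. With DEX present, 24 fell and the same gene rose, against 20.4% and 10.6% of all probe sets (31% in either direction). The comparisons with and without DEX use separate arrays but a common variance for each probe set, and 23 genes fell in both.

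The median log2 change with CHX was -1.83 over the 33 genes without DEX, beside -0.05 over all probe sets. With DEX it was -1.78, beside -0.46 over all probe sets. Centring each array on its median moved the median of all probe sets to 0.08 and 0.03, and that of the 33 genes to -1.70 and -1.30. In 23 of the 33 genes all 6 arrays with CHX lay below all 6 without it, which held for 16% of all probe sets. In 26 of the 33 the 3 arrays with CHX alone lay below the 3 with neither agent, against 24% of all probe sets. In these bulk samples, fewer cells of a type and less RNA per cell cannot be told apart.

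Some markers and RNA measures moved with CHX too. PYK10 fell from 13.30 to 8.55 ± 0.110 (SD, n = 3) with CHX alone and RCA from 8.34 to 7.16 ± 0.307 (SD, n = 3), while EXPA7, at 4.75 ± 0.651 (SD, n = 3), did not pass (limma adjusted p = 2.51e-09, 0.0128 and 0.319). EXPA7 was near the floor of 4 without treatment, so a fall as deep as that of PYK10 could not have been measured in it. Signal from the 3' end of ubiquitin over that from its 5' end, which depends on how intact and how fully labelled the RNA is, was between 3.89 and 3.95 with CHX alone and between 5.27 and 6.22 with neither agent. With both agents the ubiquitin ratio was between 4.86 and 8.59, a range that holds the 4.90 to 5.46 of DEX alone. For GAPDH such a ratio was between 2.19 and 2.30 with CHX alone and between 2.49 and 4.17 with neither agent. The actin ratios overlapped, at 5.66 to 16.6 with CHX alone and 5.37 to 9.24 with neither agent. The part of these measures in the result was not tested.

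**Figure D1:**
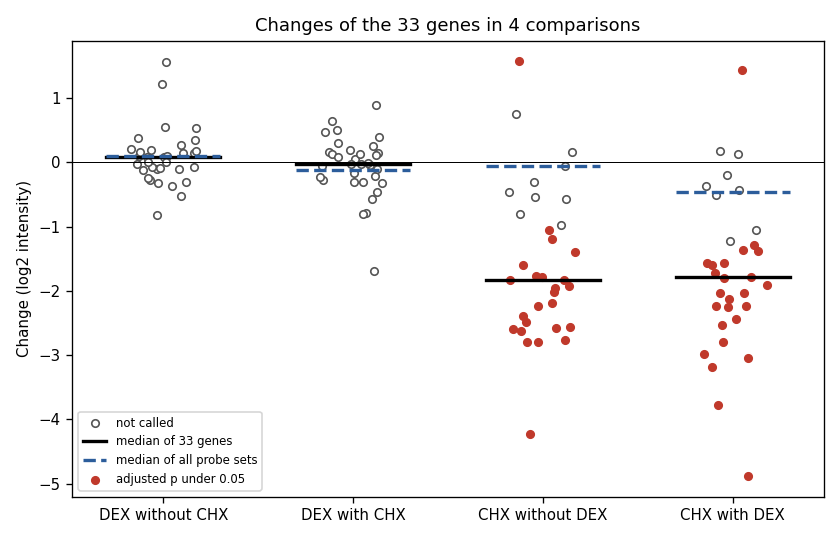
Each point is the log2 change in intensity of 1 of the 33 genes (vertical axis) in the 4 comparisons (horizontal axis), filled where the limma adjusted p is under 0.05. Solid bars are medians of the 33 genes and dashed bars medians of all probe sets; the 33 genes centre near 0 with DEX and near -1.8 with CHX.

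The proteins L26, L31, L35 and L39 lie around the tunnel through which the growing chain leaves. All 3 measured L31 genes fell with CHX. AT5G56710 was at 12.40, 12.41 and 12.32 on the arrays with neither agent and at 9.78, 10.00 and 9.88 with CHX alone. It was at 12.63, 12.12 and 12.10 with DEX alone and at 10.21, 9.67 and 10.26 with both. The arrays with CHX thus stood wholly apart from those without it, and the fall was 5.61-fold without DEX (log2 change -2.49, SE 0.19; limma adjusted p = 4.96e-07). The other L31 genes, AT4G26230 and AT2G19740, fell 4.04-fold and 3.79-fold. Both L26 genes fell as well, AT3G49910 by 3.56-fold and AT5G67510 by 2.62-fold.

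L35, a docking place at the tunnel for factors that receive new chains, was divided. AT3G09500 was at 9.74, 9.34 and 9.51 with neither agent and at 7.65, 6.17 and 6.997 with CHX alone. With DEX it went from 9.56, 9.67 and 9.63 to 7.84, 7.29 and 7.64 when CHX was added. It fell 6.02-fold without DEX (log2 change -2.59, SE 0.32; limma adjusted p = 4.06e-05) and 4.08-fold with it, and no array with CHX reached those without.

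The other 3 L35 genes did not pass in either CHX comparison. AT2G39390 was at 11.42, 11.47 and 11.67 with neither agent and at 11.07, 11.01 and 10.77 with CHX alone, groups that do not overlap but lie close (log2 change -0.57, SE 0.22; limma adjusted p = 0.0709). With both agents it was at 11.11, 10.76 and 11.73, overlapping the 11.36, 11.61 and 11.24 of DEX alone. AT5G02610 had a log2 change of -0.80 without DEX (SE 0.31; limma adjusted p = 0.0747) and -0.43 with it. Both genes passed without DEX under 4 alternative settings each.

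AT3G55170 had the smallest CHX change of the 33 genes without DEX. It was at 7.42, 6.71 and 6.88 with neither agent and at 7.25, 7.79 and 5.82 with CHX alone, groups that overlap (log2 change -0.05, SE 0.63). With DEX alone it was at 7.20, 6.09 and 6.16, and with both at 4.17, 6.02 and 5.59. The sign of the change without DEX turned when replicate 3 of CHX alone was left out (0.52) or replicate 1 of neither agent (0.16). The 1 measured L39 gene, AT3G02190, encodes a very small protein lining the tunnel and had log2 changes of -0.54 without DEX and 0.13 with it (SE 0.38), neither past the threshold.

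**Figure D2:**
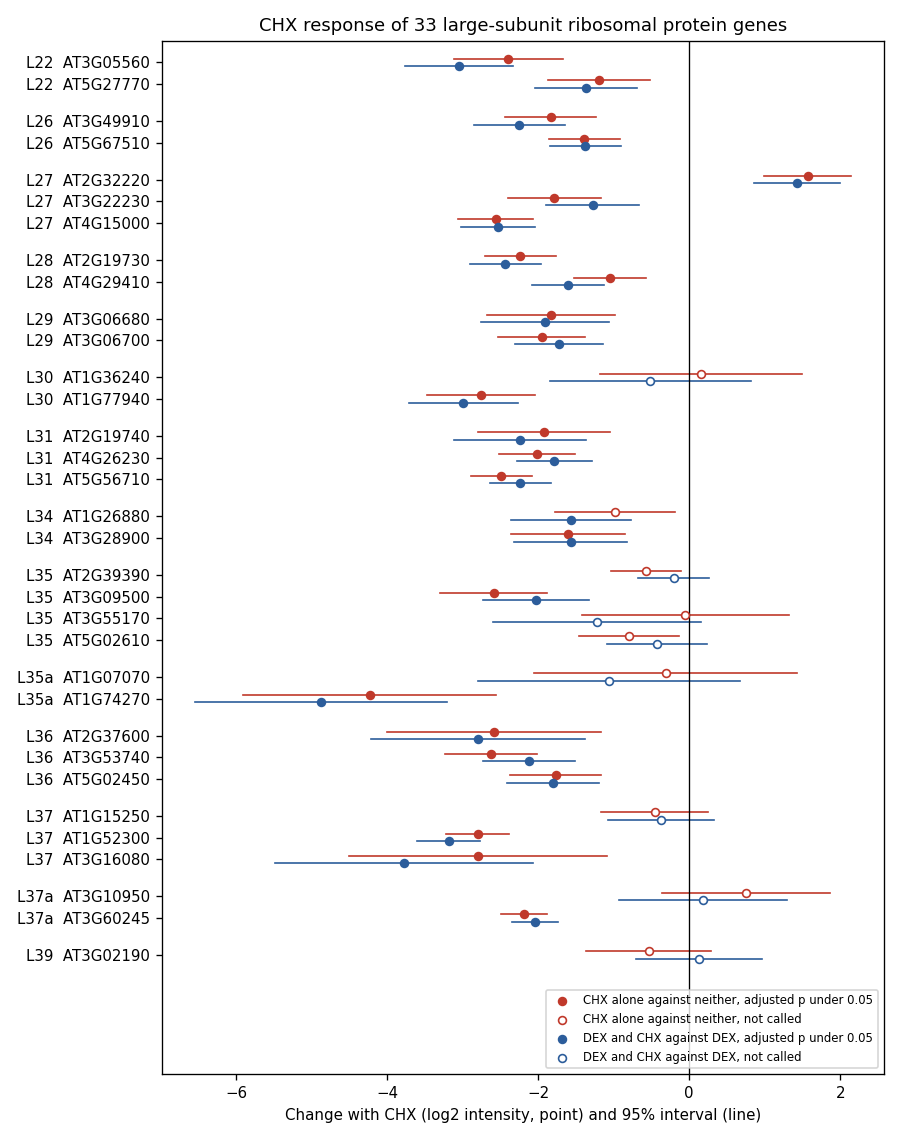
Points give the log2 change with CHX of each of the 33 genes, grouped by protein family (vertical axis), and lines the 95% interval from the fit. Filled points have a limma adjusted p under 0.05; AT2G32220 is the 1 gene filled on the right of 0 in both comparisons.

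L37 and L37a are small proteins that bind zinc. In L37, AT1G52300 was at 12.63, 12.46 and 12.54 with neither agent and at 9.76, 9.77 and 9.69 with CHX alone. It was at 12.70, 12.57 and 12.84 with DEX alone and at 9.07, 9.97 and 9.52 with both. The gap between arrays with and without CHX was far wider than the spread within any group, and the fall was 6.97-fold without DEX and 9.08-fold with it (log2 change -2.80, SE 0.19, limma adjusted p = 2.24e-07 without DEX).

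AT3G16080, also L37, had a log2 change with CHX alone of nearly the same size, but a far larger SE. The fit takes 1 spread for each probe set over all 4 groups. For this gene the SD was 0.31 with neither agent and 0.29 with CHX alone, but 2.31 with both agents (n = 3 each). AT3G16080 went from 10.52, 10.01 and 9.97 to 7.59, 7.04 and 7.46 with CHX alone, without overlap (log2 change -2.80, SE 0.79, limma adjusted p = 0.0169). This call was lost without replicate 1 of neither agent (limma adjusted p = 0.0599) and without replicate 2 of CHX alone (limma adjusted p = 0.0611). With both agents it was at 7.17 and 8.49 on 2 arrays and at the floor on replicate 3, against 10.42, 10.02 and 10.57 with DEX alone. The log2 change with DEX present was -3.78, -2.50 without that array, -4.75 without replicate 2 of both agents and -3.12 with a floor of 64.

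The third L37 gene, AT1G15250, moved little. It was at 8.07, 7.32 and 7.82 with neither agent and at 7.56, 7.20 and 7.08 with CHX alone, groups that overlap (log2 change -0.46, SE 0.32; limma adjusted p = 0.380). With DEX alone it was at 7.59, 7.91 and 7.72, and with both at 7.38, 7.70 and 7.03. Its change with DEX present was -0.37, and 0.12 with arrays centred on their medians.

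L37a was also divided between its 2 measured genes, of which the second was dim. AT3G60245 was the most precisely measured of the 33, at 13.57, 13.37 and 13.38 with neither agent and 11.33, 11.34 and 11.10 with CHX alone. It fell 4.55-fold without DEX (log2 change -2.18, SE 0.14; limma adjusted p = 1.28e-07) and 4.11-fold with it. AT3G10950 was at 6.18, 7.07 and 7.23 with neither agent and at 7.12, 7.30 and 8.31 with CHX alone, overlapping groups. Its log2 changes of 0.75 without DEX and 0.18 with it (SE 0.51) did not pass. The geometric mean of its intensity was 113.8 with neither agent and 166.7 with DEX alone, beside array medians of 115.6 to 220.9. How much of this signal was background was not tested.

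L27 held the 1 gene of the 33 that rose. AT2G32220 was at 7.07, 7.13 and 7.58 with neither agent and at 8.78, 8.73 and 8.98 with CHX alone. It was at 7.15, 7.66 and 7.56 with DEX alone and at 8.65, 9.21 and 8.79 with both. Every array with CHX lay above every array without it. The rise was 2.97-fold without DEX (log2 change 1.57, SE 0.26; limma adjusted p = 0.000492) and 2.69-fold with it (limma adjusted p = 0.000996), and the gene passed in all 16 alternatives of either comparison.

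Its paralogues fell. AT4G15000 was at 11.10, 11.10 and 11.14 with neither agent and at 8.66, 8.38 and 8.61 with CHX alone, a fall of 5.91-fold. AT3G22230 was at 9.48, 8.999 and 8.97 with neither agent and at 7.21, 7.44 and 7.44 with CHX alone, a fall of 3.45-fold. With DEX present AT4G15000 went from 11.03, 10.54 and 10.83 to 7.91, 8.83 and 8.07. AT3G22230 went from 8.52, 9.20 and 8.77 to 7.08, 7.66 and 7.91, a log2 change of -1.28 that passed as deposited and became -0.79 and missed the threshold with centred arrays (limma adjusted p = 0.0973).

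**Figure D3:**
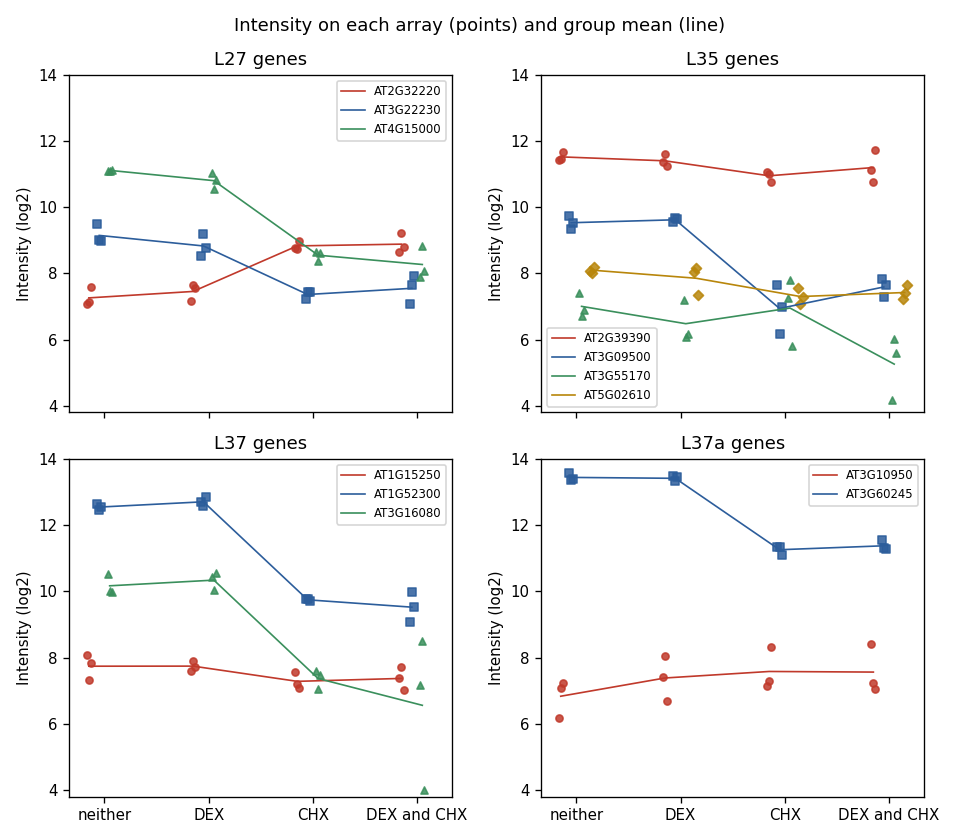
Points are log2 intensities on single arrays in the 4 groups (horizontal axis) for the genes of L27, L35, L37 and L37a, and lines join the means of 3 arrays. Heights of different genes are not comparable; each family holds at least 1 gene that passed as lower with CHX and at least 1 that did not.

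L35a, whose human counterpart is mutated in some patients with Diamond-Blackfan anaemia, held the deepest fall. AT1G74270 was at 10.05, 8.99 and 9.17 with neither agent and at 5.95, 4.0 and 5.56 with CHX alone. It was at 10.00, 9.60 and 10.22 with DEX alone and at 7.20, 4.0 and 4.0 with both. No array with CHX overlapped those without, and 3 of the 6 with CHX were at the floor, so the size depends on it. The fall was 18.8-fold without DEX (log2 change -4.23, SE 0.77; limma adjusted p = 0.000900). The log2 change was -3.40 with a floor of 64 and -3.65 without replicate 2 of CHX alone. With DEX it was -4.88, -3.54 with a floor of 64 and -5.94 without replicate 1 of both agents.

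The other measured L35a gene, AT1G07070, had widely scattered arrays, at 6.84, 4.29 and 7.01 with neither agent and at 4.0, 6.23 and 6.97 with CHX alone. These groups overlap (log2 change -0.31, SE 0.80), and the sign turned without replicate 1 of CHX alone (0.56) or without replicate 1 or 3 of neither agent (0.08 and 0.17). With DEX alone it was at 7.48, 7.12 and 7.17 and with both at 6.16, 6.23 and 6.22, which do not overlap. That log2 change of -1.06 missed the threshold (limma adjusted p = 0.356) and passed with a floor of 64.

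L30 sits at the contact between the subunits, and in yeast its protein represses its own messenger RNA. AT1G77940 was at 9.49, 8.59 and 9.34 with neither agent and at 6.60, 6.20 and 6.34 with CHX alone, a fall of 6.77-fold. With DEX it went from 8.99, 9.07 and 9.12 to 5.59, 6.30 and 6.33. AT1G36240 was near the floor without DEX, at 5.47, 4.0 and 5.80 with neither agent and at 4.51, 5.74 and 5.47 with CHX alone. A fall of the size seen in AT1G77940 could not have been measured in it, and its log2 change of 0.15 (SE 0.62) became -0.39 without replicate 2 of neither agent and -0.10 without replicate 2 of CHX alone.

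Families in which every measured gene fell in both CHX comparisons were L22, L26, L28, L29, L31 and L36. L22 is an RNA-binding protein of the subunit surface; AT3G05560 fell 5.26-fold and AT5G27770 fell 2.29-fold without DEX. In L28, a protein that budding yeast lacks, AT2G19730 fell 4.70-fold and AT4G29410 fell 2.07-fold. The L29 genes AT3G06700 and AT3G06680 fell 3.87-fold and 3.56-fold, and only 1 protein-coding gene lies between them in the TAIR10.1 gene table. AT2G19730 (L28) and AT2G19740 (L31) are direct neighbours in that table, and both fell.

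In L36, AT3G53740 fell 6.16-fold, AT5G02450 fell 3.41-fold and AT2G37600 fell 5.998-fold without DEX. AT2G37600 went from 7.39, 6.50 and 7.54 to 4.0, 4.0 and 5.68, so 2 of the 3 arrays with CHX alone were at the floor. Its log2 change was -2.58, -1.14 with a floor of 64 and -3.51 with a pseudocount in place of the floor. With DEX it was -2.79, -1.50 with a floor of 64, -2.15 after quantile normalization and -3.42 without replicate 2 of both agents.

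Both L34 genes had changes below 0. AT3G28900 fell 3.03-fold without DEX and 2.97-fold with it. AT1G26880 fell 2.95-fold with DEX, while without it the log2 change of -0.98 (SE 0.37) missed the threshold (limma adjusted p = 0.069). The difference between its 2 changes was not called (interaction -0.58, SE 0.52; limma adjusted p = 0.772).

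Responses of paralogues were compared by taking, on each array, the difference in log2 intensity between the probe sets of 2 genes of a family. The differences on 6 arrays with CHX were set against those on 6 without, by an exact two-sided permutation test whose smallest possible p is 0.00216, adjusted by Benjamini-Hochberg over the 26 pairs in 13 families. Of the 26 pairs, 13 passed, in 9 families, and 9 of them reached that smallest p. How often pairs of unrelated probe sets pass was not tested, so the count is not shown to be particular to these paralogues. Pairs of the same family can share a gene, as in L27, and are then not independent. In 2 of the 13, in L30 and L35a, the gene that fell less had less room above the floor than its paralogue fell, so a difference was partly fixed by the floor. Among the other 24 pairs, 11 passed, in 7 families. Room was counted down to the set floor only, not down to any background signal above it. Some genes that fell less in these pairs were dim without CHX, on the log2 scale. AT3G10950 averaged 7.11, AT1G15250 7.74 and AT5G02610 7.98. Whether background also limited the falls of these genes was not tested. L29, L31, L34 and L36 had no pair that passed.

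AT2G32220 had the widest gap. Its CHX response differed from that of AT4G15000 by 4.05 on the log2 scale (SE 0.18, n = 12 arrays; exact permutation adjusted p = 0.00625) and from that of AT3G22230 by 3.03 (SE 0.20; the same adjusted p). The falls of AT3G22230 and AT4G15000 differed too, by 1.02 (SE 0.25; exact permutation adjusted p = 0.0113). L27 thus showed 3 responses that were distinct from each other by this test, provided that each probe set measures only the gene it names. AT3G22230 had geometric mean intensities of 164.6 with CHX alone and 187.4 with both agents. Medians of the arrays with CHX ran from 115.6 to 167.0. Whether background limited the fall of AT3G22230 was not tested.

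In L37, AT1G15250 differed from AT3G16080 by 2.88 (SE 0.59) and from AT1G52300 by 2.58 (SE 0.18). In L37a, AT3G10950 differed from AT3G60245 by 2.57 (SE 0.41), and by 3.26 after quantile normalization. All 3 had an exact permutation adjusted p of 0.00625.

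The pairs limited by the floor are given as values only. In L35a the responses of AT1G07070 and AT1G74270 lay 3.87 apart, and 2.84 with a floor of 64. AT1G07070 averaged 2.65 above the floor without CHX, on the log2 scale, while AT1G74270 fell by 4.55 over both DEX states. In L30 those of AT1G36240 and AT1G77940 lay 2.69 apart. AT1G36240 averaged 1.87 above the floor, while AT1G77940 fell by 2.87.

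In L35, AT3G09500 fell further than AT2G39390 by 1.92 (SE 0.26) and further than AT5G02610 by 1.70 (SE 0.23), both at an exact permutation adjusted p of 0.00625. Its difference from AT3G55170 was 1.67 and missed the threshold (SE 0.58; exact permutation adjusted p = 0.0603), but it passed in 4 of 19 alternatives. These were quantile normalization (1.84), a floor of 64 (2.08), permutation within each DEX level and leaving out replicate 1 of both agents (2.18), at exact permutation adjusted p-values of 0.0322, 0.00512, 0.0464 and 0.00625. In L28, AT2G19730 fell further than AT4G29410 by 1.01 (SE 0.27; exact permutation adjusted p = 0.00625).

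The remaining calls, both weaker, were in L22 and L26. AT3G05560 and AT5G27770 (L22) differed by 1.44 (SE 0.51; exact permutation adjusted p = 0.0346), and AT3G49910 and AT5G67510 (L26) by 0.66 (SE 0.22; exact permutation adjusted p = 0.0328). Both calls were lost without replicate 1 or 2 of neither agent or without replicate 1, 2 or 3 of DEX alone, at exact permutation adjusted p-values from 0.0563 to 0.0693. The 95% intervals of the 13 pairs that did not pass are wide in several cases, and they are not shown to respond alike.

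**Figure D4:**
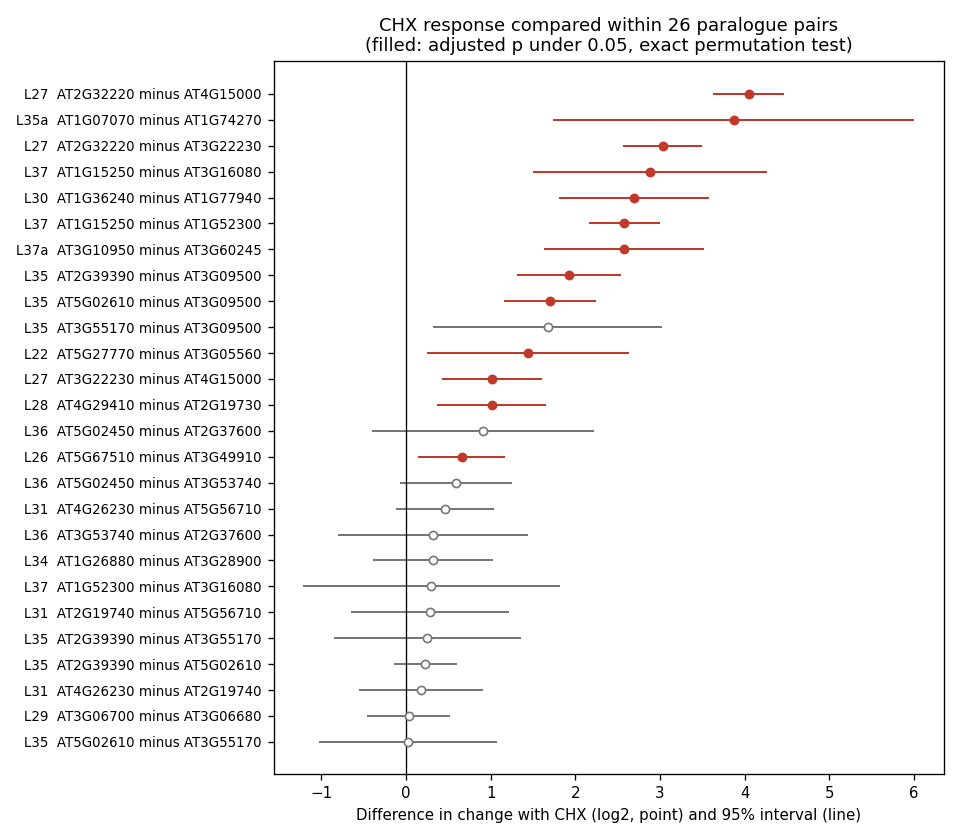
Points give, for each of the 26 paralogue pairs, how far the CHX responses of the 2 genes lie apart on the log2 scale, ordered by size, with the 95% interval as a line. Filled points passed the exact permutation test after adjustment, and the pair AT2G32220 and AT4G15000 is at the top with 4.05. The intervals come from a separate fit of the 4 groups. That of AT3G09500 and AT3G55170 excludes 0 although the pair did not pass.

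DEX, which brings ABI3 into the nucleus, moved none of the 33 genes past the threshold. Without CHX the median log2 change was 0.08, beside 0.10 over all probe sets, and 0.0132% of all probe sets passed. With CHX it was -0.03, beside -0.12, and 0.273% of all probe sets passed, 0.255% higher and 0.0176% lower. In limma, 2 of the 33 (6.06%) had an unadjusted p under 0.05 in each DEX comparison, beside 6.42% of all probe sets without CHX and 7.83% with it, and the smallest adjusted p-values were 0.734 and 0.532.

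The intervals bound these changes unevenly. Without CHX, 21 of 33 genes had a 95% interval that lay wholly within a 2-fold change, and with CHX 17 had. AT3G60245 had log2 changes of -0.03 without CHX (95% interval from -0.33 to 0.28) and 0.12 with it (from -0.19 to 0.42). AT2G32220, which rose with CHX, had DEX changes of 0.19 and 0.05 (SE 0.26).

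The 4 DEX changes with an unadjusted p under 0.05 came from 3 genes. AT3G28900 (L34) had -0.82 without CHX and -0.78 with it (SE 0.35). AT1G36240 (L30) had 1.56 without CHX (SE 0.62), which was 0.78 with a floor of 64 and 2.38 with a pseudocount in place of the floor. AT3G55170 (L35) had -1.69 with CHX (SE 0.63), and -1.01 with a floor of 64. None of them passed in any alternative tried.

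Whether DEX altered the CHX response was tested as the interaction. None of the 33 genes passed and none had an unadjusted p under 0.05 in limma, where 0.00440% of all probe sets passed and 7.98% had such a p. The smallest adjusted p was 0.662, for AT4G29410 (L28), with an interaction of -0.56 (SE 0.31). The interval lay within a 2-fold difference in 9 of 33 genes, so differences of that size could be missed in the others.

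Other ribosomal genes gave similar counts with CHX. Over all probe sets 16.1% fell and 10.9% rose without DEX, and the median log2 change was -0.05. Of 45 measured genes of other large-subunit proteins, 34 fell and none rose without DEX, with a median log2 change of -1.61. AT4G27090, encoding L14, had a log2 change of -1.68 (SE 0.16; limma adjusted p = 3.3e-06), while AT3G16780, encoding L19, had -0.08 (SE 0.20). Of 47 measured small-subunit genes, 31 fell and none rose, with a median of -1.59. Among them AT5G20290 (S8) had -1.99 (SE 0.20; limma adjusted p = 4.94e-06) and AT1G48830 (S7) -1.58 (SE 0.21; limma adjusted p = 8.27e-05).

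Of 10 measured ribosome assembly genes, 2 fell and 1 rose without DEX, near the background of 16.1% and 10.9%, and their median log2 change was 0.35. AT5G14520, the pescadillo homologue needed for large-subunit assembly, rose by 1.19 (SE 0.17; limma adjusted p = 0.000124), and AT1G50920, a nucleolar GTPase gene, fell by 0.80 (-0.80, SE 0.14; limma adjusted p = 0.000856). In the DEX comparisons none of the genes on these 3 lists passed, with or without CHX; 1, 1 and 1 of them had an unadjusted p under 0.05 without CHX and 6, 5 and 2 with it in limma. With DEX present, CHX lowered 35 of 45, 36 of 47 and 1 of 10, against 20.4% of all probe sets.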

How the data were processed

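Total RNA from root protoplasts was labelled with biotin, per the labels' protocols, and measured on 12 arrays of 22810 probe sets. The deposited values are linear intensities of single probe sets. On each array their mean, leaving out the outer 2% at both ends, came to 500.0, and the sources used here do not name the software. A floor of 16 was set on the deposited intensities before log2, and 64 control probe sets were left out, leaving 22746. Genes came from the platform annotation (13513 probe sets with 1 gene, 503 with several, 8730 with none) and were matched by Entrez ID or locus to the TAIR10.1 gene table (13484 matched). Families follow the usual Arabidopsis protein names and were assigned by hand.

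Groups were fitted together in limma 3.58.1 (R 4.3.3; lmFit, eBayes with a variance trend), with Benjamini-Hochberg adjustment over all probe sets and a threshold of 0.05. Python 3.11.15 ran the permutation tests. Both fits were tested on simulated data. The number of arrays limits the precision. Named genes followed a written rule: every member may be named; array values are given for the members with the 2 largest and 2 smallest CHX changes, for those in the widest paralogue pairs and for 1 family of each role, and of each other list the 2 genes of highest mean are named. The members, lists and rules were chosen with earlier results of these data known. Alternatives were other normalizations and floors, filters, fits, a replicate block and each array left out. The mean over a gene's probe sets changed nothing, since each gene had 1. No sequences are given. Without probe sequences, binding of a paralogue's RNA by a probe set (cross-hybridisation) could not be checked.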

Additional observations from a re-analysis of the deposited data

How the results depend on the processing

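The counts of genes past the threshold stayed within 1.5 times their value in every comparison and alternative tried: 22 to 26 fell with CHX without DEX, 23 to 25 fell with it, 1 rose in each, and none passed for DEX or the interaction. The count of paralogue pairs ran from 11 to 15. Medians over the 33 genes moved by more than the within-group SD of 0.19 in 7 cases: -1.61 (CHX without DEX) and -1.52 (CHX with DEX) after quantile normalization, and with centred arrays -1.30 (CHX with DEX) and -0.12 (DEX without CHX). The median interaction was 0.063 after quantile normalization and 0.22 with centring, and ran from -0.25 to 0.067 with 1 array left out, the last without replicate 2 of neither agent. Leave-one-out ranges of the other medians were -1.99 to -1.71 and -1.96 to -1.65 for CHX without and with DEX, and -0.04 to 0.13 and -0.11 to 0.07 for DEX without and with CHX.

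Signs turned only in genes that were not called. With arrays centred the log2 change was 0.082 for AT3G55170 without DEX, and 0.29 for AT2G39390, 0.059 for AT5G02610 and 0.12 for AT1G15250 with DEX. After quantile normalization AT5G02610 was at 0.025 and AT1G15250 at 0.11 with DEX. AT3G55170 was at 0.010 with a floor of 64, and AT1G36240 at -0.15 with array weights, both without DEX. With 1 array left out, changes without DEX ran from -0.39 to 0.52 for AT1G36240, -0.47 to 0.52 for AT3G55170 and -1.19 to 0.56 for AT1G07070. With DEX they ran from -0.47 to 0.017 for AT2G39390, -0.24 to 0.51 for AT3G10950 and -0.13 to 0.39 for AT3G02190. The cause was not tested.

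Replicate numbers are shared by the groups, but only 4 of 18 same-numbered pairs of arrays had deviations that correlated above 0.1 (range -0.439 to 0.294), so the numbers were not taken as pairs. With the replicate block, 23 and 24 genes fell with CHX without and with DEX, as without it, and 12 paralogue pairs passed; the L22 pair AT3G05560 and AT5G27770 was lost (exact permutation adjusted p = 0.0556).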

Other observations

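Loci without a probe set of their own were partly covered by 8 probe sets that each name 2 genes of 1 family, so which paralogue is measured cannot be told apart. All 8 fell with CHX without DEX and all 8 with it (limma, adjusted p under 0.05), against 16.1% and 20.4% of all probe sets. Their median log2 changes were -2.06 and -1.84. None passed for DEX, where 0.0132% of all probe sets passed without CHX and 0.273% with it. For L21, the deeper falling of a pair of such probe sets was at 11.80, 11.32 and 11.49 with neither agent and at 9.20, 9.21 and 9.20 with CHX alone, and the other fell less (log2 change -0.88; limma adjusted p = 0.0154). For L32, 1 probe set went from 11.02, 10.88 and 10.73 to 8.74, 9.01 and 8.40. The L38 probe sets had log2 changes of -2.14 and -1.43.

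For L35a, 1 probe set went from 10.55, 10.57 and 10.68 with neither agent to 8.90, 8.995 and 8.93 with CHX alone. For L39, 1 probe set went from 11.89, 11.75 and 11.68 to 9.66, 9.94 and 9.25, and the other had a log2 change of -1.98 (limma adjusted p = 0.00026). The L39 gene with a probe set of its own, AT3G02190, had -0.54 and did not pass. The difference between these L39 probe sets was not tested.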
